A study of Mus musculus with 6 samples.

Results

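The collagen genes were taken from the count table by symbol: Col, a number, the letter a and a number, as in Col1a2. The rule found 44 of 24028 genes, which belong to 27 collagen types. The cells were C2C12, an immortalised line of mouse myoblasts, here a clonal line with a puromycin-selected, doxycycline-inducible transgene called MMH. MMH is a codon-altered chimera: mouse Dux supplies the N-terminus with the homeodomains, and human DUX4 supplies everything C-terminal to them. Induced cells received doxycycline at 2 µg/ml and uninduced cells of the same line did not, with 3 separate cultures in each group, all under puromycin at 2.6 µg/ml. The time of induction is 18 h in the series description and 36 h in the sample protocol, so it is uncertain for every value below. The line is a single clone, and doxycycline without the transgene was not analysed here, so the drug and the transgene cannot be told apart.

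Collagens are the main structural proteins of the extracellular matrix. Chains with a repeated Gly-X-Y motif are hydroxylated and glycosylated before they wind into a helix. The helix is secreted and, in the fibrillar types, trimmed and cross-linked into fibrils. In muscle, types I, III and V build the interstitial fibrils, type IV the basement membrane around each fibre, and type VI the microfibrils that link this membrane to the fibrils. Dux and DUX4 are transcription factors of the early embryo, and DUX4 misexpressed in muscle is linked to facioscapulohumeral dystrophy.

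The repeat that defines the family is visible in the exons of the fibrillar genes. The first 54-base coding exon with a glycine codon in every 9 bases is given, with the glycine codons (GGN) in capitals, for 4 genes that fell (Col1a1, Col1a2, Col3a1 and Col5a2) and 1 that rose (Col2a1). They were read from GENCODE M21 transcripts on GRCm38.
Col1a1, exon 8 (plus strand of chr11:94939904-94939957): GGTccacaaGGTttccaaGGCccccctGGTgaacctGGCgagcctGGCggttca
Col1a2, exon 8 (plus strand of chr6:4515481-4515534): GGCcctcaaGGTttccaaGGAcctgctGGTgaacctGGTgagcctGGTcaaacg
Col3a1, exon 6 (plus strand of chr1:45325360-45325413): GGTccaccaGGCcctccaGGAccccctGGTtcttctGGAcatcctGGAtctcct
Col5a2, exon 6 (minus strand of chr1:45434892-45434945): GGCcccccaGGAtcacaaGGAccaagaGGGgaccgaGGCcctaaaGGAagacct
Col2a1, exon 6 (minus strand of chr15:97998545-97998598): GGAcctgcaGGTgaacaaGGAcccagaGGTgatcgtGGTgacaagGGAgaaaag

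Each of these exons holds 6 glycine codons, 1 in every 9 bases. The longest unbroken run of Gly-X-Y triplets in the coding sequence was 338 in Col1a1, 339 in Col1a2 and Col2a1 and 344 in Col3a1. It was 40 in Col4a1 and 45 in Col6a3, whose helices are interrupted or short. In Col1a2 24 of 52 coding exons were exactly 54 bases long, against 2 of 52 in Col4a1. Genes with the long run were found among those that fell and those that rose.

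Of the 44 genes, 30 had enough counts to be tested and 14 did not. By edgeR's quasi-likelihood test, at a Benjamini-Hochberg adjusted p of 0.05 over all 12969 genes tested, 22 of the 30 were lower in induced cells and 5 higher. The other 3 were not called. Of all tested genes 82.5% were called, 41.2% lower and 41.3% higher, so the share called in either direction was near the background and the balance lay on the lower side. Induced and uninduced libraries did not overlap in 28 of the 30 (all 27 called genes and Col7a1), beside 83.1% of all tested genes, and 41.7% of all lay apart with induced libraries lower. At a change of at least 2-fold, 13 collagens were lower and 4 higher, while 12.7% of all tested genes were lower and 18% higher by that much. The median log2 fold change of the 30 collagens was -0.85, beside -0.01 over all tested genes. A gene can pass the count filter through 1 group alone, which favours genes that are high there. Col6a4 passed through induced libraries only, and Col24a1 and Col26a1 through uninduced libraries only. Of the 27 collagens above the filter in both groups, 21 were lower and 4 higher, 12 and 3 of them by at least 2-fold, with a median of -0.90. Of the 11685 genes above the filter in both groups, 4970 (42.5%) were lower and 4753 higher. By at least 2-fold, 1314 (11.2%) were lower and 1749 higher, and the median of the 11685 was -0.02. In bulk RNA, fewer cells that make a transcript and less of it per cell cannot be told apart.

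The libraries held 21503384 to 24489531 counts in induced cells and 21897417 to 23985544 in uninduced cells. Levels are CPM (counts per 1e6 counts) on library sizes scaled by TMM, which takes most genes as unchanged. Each fold change is therefore relative to the other genes; when libraries were scaled by their totals alone, the median of all tested genes was -0.97 on the log2 scale. No library stood apart from its group, with correlations of log2 CPM of 0.996 to 0.998 within groups and 0.859 to 0.864 between groups. Of 7 myoblast markers 5 were tested and 4 were lower, beside 41.2% of all tested genes (summed level 1099 to 1133 CPM in induced and 1794 to 1811 CPM in uninduced libraries). The other tested marker, Chrna1, was not called, at 340 CPM in induced and 347 CPM in uninduced cells. Myod1 was at 37.1 CPM in induced and 178 CPM in uninduced cells and Des at 689 and 1042 CPM, whereas Pax7 (11 and 3 counts over 3 libraries) and Msc (0 and 3) were near 0 in both groups. Of 5 osteoblast markers 2 were tested, Runx2 (lower) and Sp7 (lower, but admitted by the filter through uninduced libraries only), with a summed level of 35.3 to 37.3 CPM in induced and 51.3 to 54.1 CPM in uninduced libraries. Of 5 endothelial markers only Pecam1 and Tek were tested, both admitted through induced libraries alone, so that their higher calls are no independent count. The 5 summed to 2.11 to 2.64 CPM in induced and 0.0647 to 0.459 CPM in uninduced libraries, while Cdh5, Kdr and Emcn had at most 6 counts over the 3 libraries of a group. The 5 leukocyte markers summed to 1.16 to 1.61 CPM in induced and 0.838 to 1.34 CPM in uninduced libraries; only Cd68 was tested and it was not called, with Ptprc and Adgre1 at no more than 3 counts a group. The part of these markers in the collagen values was not tested.

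**Figure D1:**
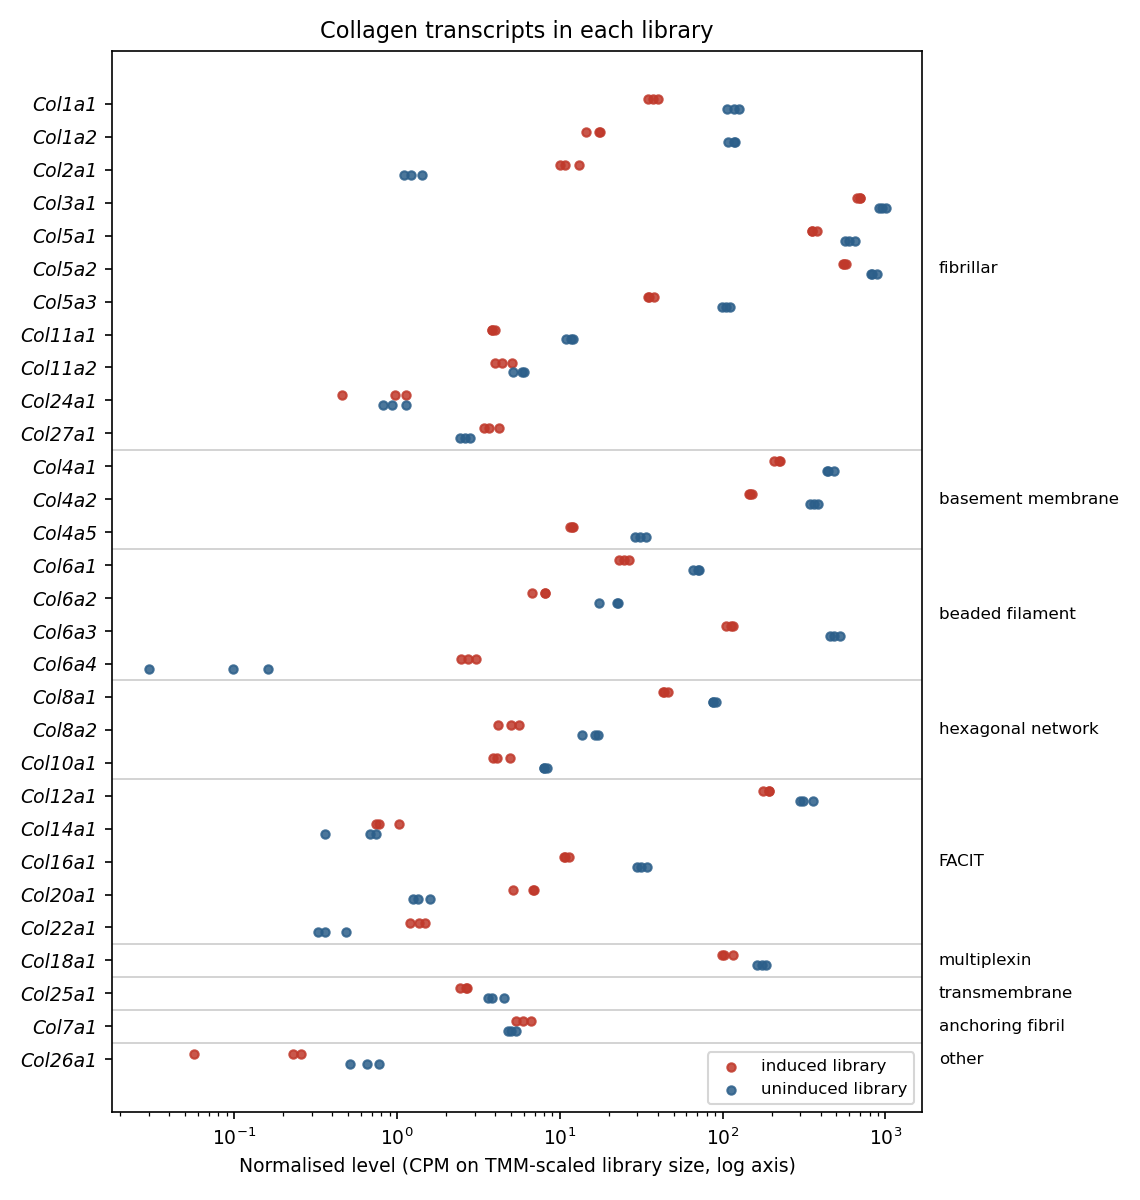
Level of each of the 30 tested collagen genes in the 3 induced (red) and 3 uninduced (blue) libraries, in CPM on TMM-scaled library size on a log axis, grouped by structural class (beaded filament is type VI, hexagonal network the short-chain types VIII and X, FACIT the fibril-associated collagens, multiplexin Col18a1). Induced libraries lie below uninduced ones for most rows, and above them for Col2a1, Col6a4, Col20a1, Col22a1, Col27a1 and, narrowly, Col7a1.

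**Figure D2:**
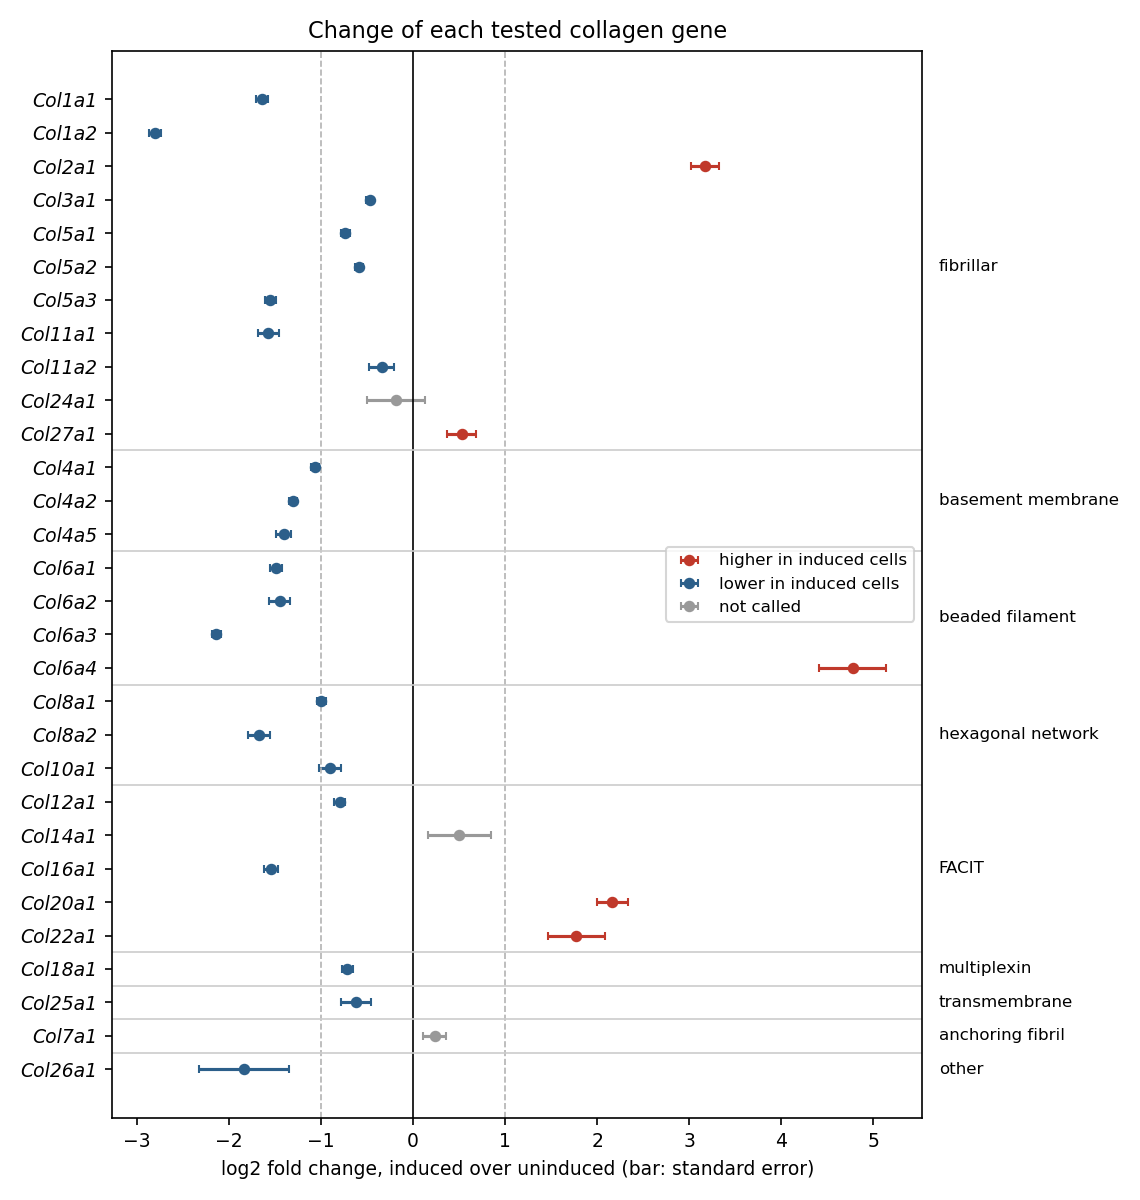
Log2 fold change of the 30 tested collagen genes, induced over uninduced, with standard errors from edgeR; dashed lines mark a 2-fold change either way. Changes run from -2.80 for Col1a2 to 4.78 for Col6a4.

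Type I collagen, the main fibril protein of tendon, bone and skin, fell in both of its chains and most of all in the α2 chain. Col1a2 (chr6:4505618-4541543, GRCm38) was at 14.4, 17.6 and 17.4 CPM in induced libraries, against 120, 117 and 108 CPM in uninduced libraries. The groups lay far apart, and the log2 fold change was -2.80 ± 0.07 (SE, edgeR adjusted p = 6.4e-21), a 6.99-fold lower level. Only 0.586% of all tested genes had a lower value. Col1a1 (chr11:94936224-94953042) encodes the α1 chain, of which the molecule usually holds a pair. It was at 37.4, 40.1 and 34.7 CPM in induced libraries and at 117, 127 and 106 CPM in uninduced libraries, a log2 fold change of -1.64 ± 0.07 (SE). The tendon factor gene Scx, from the tendon and fibroblast marker list, was at 6.28 CPM in induced and 48.2 CPM in uninduced cells. Of that list 2 of 6 genes were tested, Scx lower and Pdgfra higher, with a summed level of 54.8 to 57.3 CPM in induced and 60.2 to 62.6 CPM in uninduced libraries, and its part in the fall of type I was not tested.

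The fall was uneven between the chains of type I. Within a library, the ratio of Col1a1 to Col1a2 counts does not depend on how libraries are scaled. It was 2.59, 2.28 and 2.00 in induced libraries, against 0.977, 1.08 and 0.984 in uninduced libraries. The groups did not overlap, and the log2 ratio was higher by 1.17 in induced cells. With 3 libraries against 3, an exact two-sided permutation test cannot go below p = 0.1, which was the value here (0.117 after Benjamini-Hochberg adjustment over 7 chain pairs).

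Type III and the α1 and α2 chains of type V, which copolymerise with type I, were the most abundant collagens per length and fell by less than 2-fold. Col3a1 was at 698, 696 and 669 CPM in induced libraries, against 1004, 951 and 909 CPM in uninduced libraries. All induced values lay below all uninduced ones, at -0.47 ± 0.04 on the log2 scale (SE; edgeR adjusted p = 2.5e-10). Col5a2 stood at 553, 571 and 561 CPM in induced libraries and at 888, 820.2 and 827 CPM in uninduced libraries, at -0.59 ± 0.04. Col5a1 reached 379, 357 and 355 CPM in induced libraries and 652, 596 and 568 CPM in uninduced libraries, at -0.74 ± 0.05. Tested against a change of 1.5-fold with edgeR's glmTreat, neither Col3a1 (adjusted p = 1.0) nor Col5a2 (adjusted p = 0.423) was called. The α3 chain of type V had a lower fold change than its partners: Col5a3 was at 35.3, 37.8 and 34.9 CPM in induced libraries, against 111, 105 and 99.3 CPM in uninduced libraries, at -1.55 ± 0.06. Col3a1 and Col5a2 are neighbours on chromosome 1, tail to tail with 24614 bp between them. Their ratio was 1.26, 1.22 and 1.19 in induced and 1.13, 1.16 and 1.10 in uninduced libraries, without overlap but with a difference of only 0.12 on the log2 scale. The ratio of Col5a1 to Col5a2 was 0.686, 0.624 and 0.633 in induced and 0.735, 0.727 and 0.687 in uninduced libraries, so the highest induced value nearly touched the lowest uninduced one (mean difference -0.15 on the log2 scale).

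Upstream of the start sites the gene that fell most and the most abundant one look different. The 250 bases before the RefSeq start (GRCm38.p6, plus strand) of each are shown, with capitals at 3 promoter motifs. The GC box is GGGCGG. The CAAT box is CCAAT. The core of the TATA box is TATAAA. Capitals mark these letters at any distance from the start, so position was not used.
Col1a2 (chr6:4505368-4505617): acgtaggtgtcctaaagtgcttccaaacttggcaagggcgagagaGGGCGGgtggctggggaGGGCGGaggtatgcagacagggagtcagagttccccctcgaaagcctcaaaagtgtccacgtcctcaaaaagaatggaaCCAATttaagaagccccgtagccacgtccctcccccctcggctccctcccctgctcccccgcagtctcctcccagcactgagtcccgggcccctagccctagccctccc
Col3a1 (chr1:45311288-45311537): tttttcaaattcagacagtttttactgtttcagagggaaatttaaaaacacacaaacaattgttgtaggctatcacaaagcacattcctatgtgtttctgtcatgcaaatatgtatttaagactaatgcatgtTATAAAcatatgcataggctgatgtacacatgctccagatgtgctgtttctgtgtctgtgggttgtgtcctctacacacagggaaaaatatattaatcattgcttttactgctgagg

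RefSeq windows from 250 bases before to 50 after the start were on hand for 35 of the 44 genes, and both strands were searched, 1 window a gene. Col1a1, Col5a2 and Col12a1, which fell, and Col2a1 and Col22a1, which rose, were among the genes without a window. The GC box was found in 22 of the 35 windows (62.9%) and in 35.9% of 27018 windows of all genes, tested here or not. The CAAT box was found in 12 (34.3%, against 38.0% of all) and the TATA core in 5 (14.3%, against 14.2%). A paired-site pattern of the kind bound by double homeodomain proteins, TGATT and ATCA with 2 bases between them, was in 0 of the 35 windows and in 0.233% of all. For so rare a pattern, 35 windows are too few to expect a match, so nothing is read from the 0. Matches are letters in a window and were not tied to binding.

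Among the remaining fibrillar genes, type XI chains, which sit in the core of cartilage fibrils, differed in how far they changed. Col11a1 was at 3.82, 4.01 and 3.84 CPM in induced libraries and at 11.8, 12.0 and 10.9 CPM in uninduced libraries, a log2 fold change of -1.58 ± 0.11 (SE). Col11a2 was at -0.34 ± 0.13 (edgeR adjusted p = 0.0219), a call that DESeq2 did not make (adjusted p = 0.0785). It was also lost when any of 4 libraries was left out (adjusted p = 0.0643 without induced replicate 1, 0.115 without induced replicate 3, 0.0518 without uninduced replicate 1 and 0.0632 without uninduced replicate 3). The ratio of Col11a1 to Col11a2 was 0.871, 0.786 and 0.957 in induced libraries, against 2.01, 2.34 and 1.80 in uninduced libraries. It lay below 1 in every induced library and above 1 in every uninduced one (exact permutation p = 0.1, the smallest possible).

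Col2a1, the fibrillar collagen of cartilage, went the other way. It was at 10.8, 13.1 and 10.0 CPM in induced libraries, against 1.11, 1.42 and 1.21 CPM in uninduced libraries. The log2 fold change was 3.17 ± 0.15 (SE, n = 3 each; edgeR adjusted p = 1.8e-15). Even so it stayed a minor collagen, at 2.22 ± 0.317 CPM per kb of transcript in induced cells and 0.244 ± 0.0315 CPM per kb in uninduced cells (SD, n = 3 each). Col9a1, another cartilage collagen, had no count in any library. Of 5 cartilage markers 3 were tested, with Sox9, the chondrocyte master factor, higher (0.99 ± 0.06), Matn3 lower (-0.70 ± 0.32) and Comp not called. Matn3 and Comp passed the filter through uninduced libraries only, and their groups overlapped. Their summed level was 66.1 to 73.8 CPM in induced and 33.9 to 37.2 CPM in uninduced libraries, nearly all of it from Sox9, with Matn1 at 0, and their part in the rise of Col2a1 was not tested. Col27a1, another fibrillar gene, was at 3.42, 3.69 and 4.25 CPM in induced and 2.45, 2.81 and 2.62 CPM in uninduced libraries, a log2 fold change of 0.53 ± 0.16 that turned to -0.44 on total counts alone. Col24a1 was not called (-0.18 ± 0.32).

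Type IV collagen, the network of basement membranes, was represented by its α1, α2 and α5 chains, and all 3 fell by more than 2-fold. Col4a1 was at 223, 224 and 208 CPM in induced libraries, against 487, 447 and 437 CPM in uninduced libraries, at -1.06 ± 0.05 on the log2 scale. Col4a2, its partner in the common α1α1α2 molecule, was at 147, 151 and 145 CPM in induced and 386, 362 and 346 CPM in uninduced libraries, at -1.31 ± 0.04 (SE, edgeR adjusted p = 2.3e-18). The gene pair lies head to head on chromosome 8, with annotated starts 21 bp apart and overlapping first ends, where reads of the pair cannot be told apart. Its ratio was nonetheless not fixed, at 1.52, 1.48 and 1.44 for Col4a1 over Col4a2 in induced libraries and 1.26, 1.24 and 1.26 in uninduced libraries, a difference of 0.24 on the log2 scale without overlap.

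Col4a5, on chromosome X, was at 11.5, 11.9 and 12.0 CPM in induced libraries and 34.1, 31.0 and 28.8 CPM in uninduced libraries, at -1.41 ± 0.08. Its head-to-head neighbour Col4a6, with starts 1309 bp apart, had 1 to 2 counts in induced and 4 to 8 counts in uninduced libraries. The kidney-type chains Col4a3 and Col4a4 were close to silent, with 0 and 5 counts over the induced and 7 and 17 over the uninduced libraries.

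Type VI collagen, whose loss causes Bethlem and Ullrich muscle diseases, fell in all 3 of its classical chains. Col6a3 (chr1:90766860-90844001), the largest chain, was at 113, 116 and 104 CPM in induced libraries, against 524, 484 and 458 CPM in uninduced libraries. Its value of -2.14 ± 0.05 on the log2 scale (SE; edgeR adjusted p = 9.6e-20) was the second lowest among collagens. Col6a1 was at 23.0, 24.8 and 26.5 CPM in induced and 70.7, 72.0 and 66.0 CPM in uninduced libraries, at -1.49 ± 0.06. Col6a2, next to it on chromosome 10, was at 6.78, 8.15 and 8.09 CPM in induced and 22.6, 22.7 and 17.4 CPM in uninduced libraries, at -1.45 ± 0.11.

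The chains Col6a1 and Col6a2 showed no difference in proportion beyond the spread of libraries. Their ratio was 3.38, 3.03 and 3.27 in induced and 3.13, 3.18 and 3.78 in uninduced libraries, the only pair of the 7 with overlapping groups (exact permutation p = 0.7). How often ratios of other gene pairs lie apart was not measured. Of single tested genes 83.1% did not overlap, so separation of a chain pair is not read as a trait of collagens.

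The alternative type VI chains lie in a row on chromosome 9 and had few counts. Col6a4 had 48, 47 and 43 counts in induced libraries and 1, 5 and 3 in uninduced libraries, which is 2.73, 3.04 and 2.47 CPM against 0.0299, 0.162 and 0.0983 CPM. Its rise of 4.78 ± 0.36 on the log2 scale (SE; edgeR adjusted p = 1.2e-11) is imprecise with so few uninduced counts, and it was tested only through its induced counts. Its neighbours Col6a5 (2, 1 and 4 induced counts, none uninduced) and Col6a6 (1 count in each group) were not tested.

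The short-chain network collagens fell. Col8a2 was at 4.16, 5.63 and 5.05 CPM in induced libraries and 17.2, 16.4 and 13.6 CPM in uninduced libraries, at -1.68 ± 0.12. Its partner Col8a1 was just short of a 2-fold change, at 44.3 ± 1.46 CPM in induced and 88.5 ± 2.12 CPM in uninduced cells (SD, n = 3 each), and their ratio was 10.3, 8.12 and 8.66 in induced against 5.28, 5.33 and 6.39 in uninduced libraries. Col10a1, the collagen of hypertrophic cartilage, was at -0.90 ± 0.12, but it lies inside Nt5dc1 on the opposite strand. Nt5dc1 was itself at 3.49 CPM in induced and 9.22 CPM in uninduced cells, and the strand setting of the counts is not given in the sources used here, so reads of the pair cannot be told apart.

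Of the fibril-associated collagens, which decorate fibrils without forming them, 5 of 9 were tested and they split. Col16a1 was at 11.4, 10.6 and 10.8 CPM in induced libraries and 34.4, 31.5 and 29.9 CPM in uninduced libraries, at -1.54 ± 0.08. Col12a1, abundant in muscle connective tissue, was at 187 ± 9.30 CPM in induced and 325 ± 32.5 CPM in uninduced cells (SD, n = 3 each), at -0.80 ± 0.06. Col20a1 went up, with 6.89, 6.92 and 5.16 CPM in induced libraries against 1.59, 1.26 and 1.34 CPM in uninduced libraries, a rise of 2.17 ± 0.17 on the log2 scale (SE; edgeR adjusted p = 2.9e-11).

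Col22a1, a collagen of the muscle-tendon junction, was also higher, at 1.48, 1.36 and 1.20 CPM in induced and 0.329, 0.485 and 0.360 CPM in uninduced libraries. Its log2 fold change was 1.78 ± 0.31, on 11 to 26 counts a library. Col14a1 overlapped between groups and was not called (0.50 ± 0.34). Col9a2, Col9a3 and Col19a1 had at most 13 counts in any library.

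The basement membrane proteoglycan Col18a1, source of endostatin, was at 106 ± 8.66 CPM in induced and 173 ± 11.1 CPM in uninduced cells (SD, n = 3 each), at -0.71 ± 0.06. Slc19a1, which overlaps it on the other strand, was at -0.06 (edgeR adjusted p = 0.421). The membrane collagen Col25a1, which is known for its role in the innervation of developing muscle, was at -0.62 ± 0.16. Col26a1 fell to 1, 4 and 4 counts in induced libraries, against 26, 16 and 20 in uninduced libraries, at -1.84 ± 0.49, and was tested only through its uninduced counts. Col7a1, the anchoring fibril of skin, was at 5.96 ± 0.621 CPM in induced and 5.07 ± 0.270 CPM in uninduced cells (SD, n = 3 each) and was not called (0.24 ± 0.12, edgeR adjusted p = 0.0843). Without induced replicate 2 it was called higher (0.30, adjusted p = 0.0441), and on total counts alone it was called lower (-0.73). The members not yet named, Col13a1, Col15a1, Col17a1, Col23a1 and Col28a1, had 0 to 14 counts a library. A floor of 3 counts corresponds to 0.171 to 0.194 CPM in an induced and 0.0897 to 0.0983 CPM in an uninduced library, counting error only.

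Summed over all 44 genes, collagen transcripts took 0.188% ± 0.00524 of all counts in induced libraries and 0.678% ± 0.0381 in uninduced libraries (SD, n = 3 each). On the TMM scale the sums were 2628 ± 59.8 CPM in induced and 4852 ± 276 CPM in uninduced cells, a ratio of 0.542. By class the ratio of sums was 0.253 for the type VI family, 0.443 for type IV and 0.477 for the short-chain networks. It was 0.577 for the fibril-associated genes, 0.610 for Col15a1 with Col18a1 and 0.625 for the fibrillar genes. Col26a1 with Col28a1 was at 0.693, the membrane collagens at 0.745 and Col7a1 alone at 1.18. Single genes dominated some sums. In uninduced cells Col6a3 held 489 of 579 CPM for type VI and Col12a1 325 of 360 CPM for the fibril-associated genes. Of the tested fibril-associated genes 2 were lower and 2 higher, with a median log2 fold change of 0.50.

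The make-up of the collagen pool differed between groups. Per kb of transcript, Col3a1 made up 30.5% ± 0.102 of the collagen signal in induced cells and 23.3% ± 0.132 in uninduced cells, and Col5a2 20.9% ± 0.532 and 17.3% ± 0.469 (SD, n = 3 each). Col6a3 took 3.05% ± 0.104 in induced and 7.36% ± 0.105 in uninduced cells, and Col1a2 0.761% ± 0.0894 and 2.91% ± 0.0683. In both groups the order of the first 5 was Col3a1, Col5a2, Col5a1, Col4a1 and Col4a2. Col1a2 held place 13 in induced and place 9 in uninduced cells. Col1a2 stood at 3.08 ± 0.333 CPM per kb in induced and 21.5 ± 1.18 CPM per kb in uninduced cells, and Col1a1 at 6.31 ± 0.455 and 19.7 ± 1.76 CPM per kb. Per kb, Col1a2 was below Col1a1 in all 3 induced libraries and above it in all 3 uninduced libraries.

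**Figure D3:**
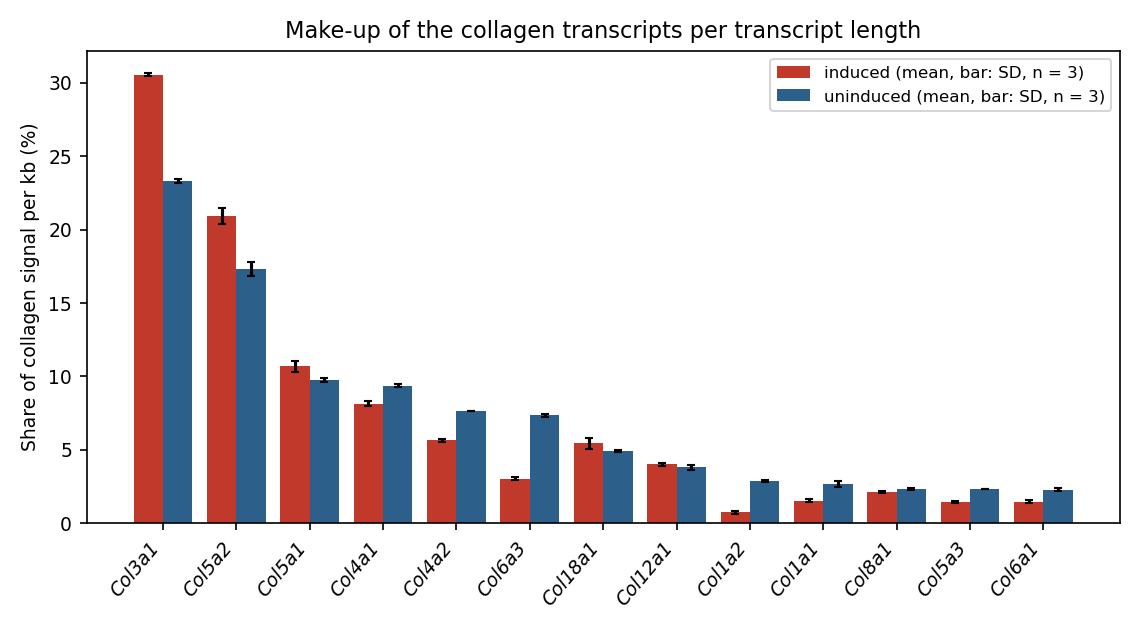
Share of the summed collagen signal per kb of transcript held by the 13 genes that lead in uninduced cells, in percent, as mean and SD of 3 libraries a group. The induced bar is the higher one for Col3a1, Col5a2 and Col5a1 and the lower one for Col6a3 and Col1a2.

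**Figure D4:**
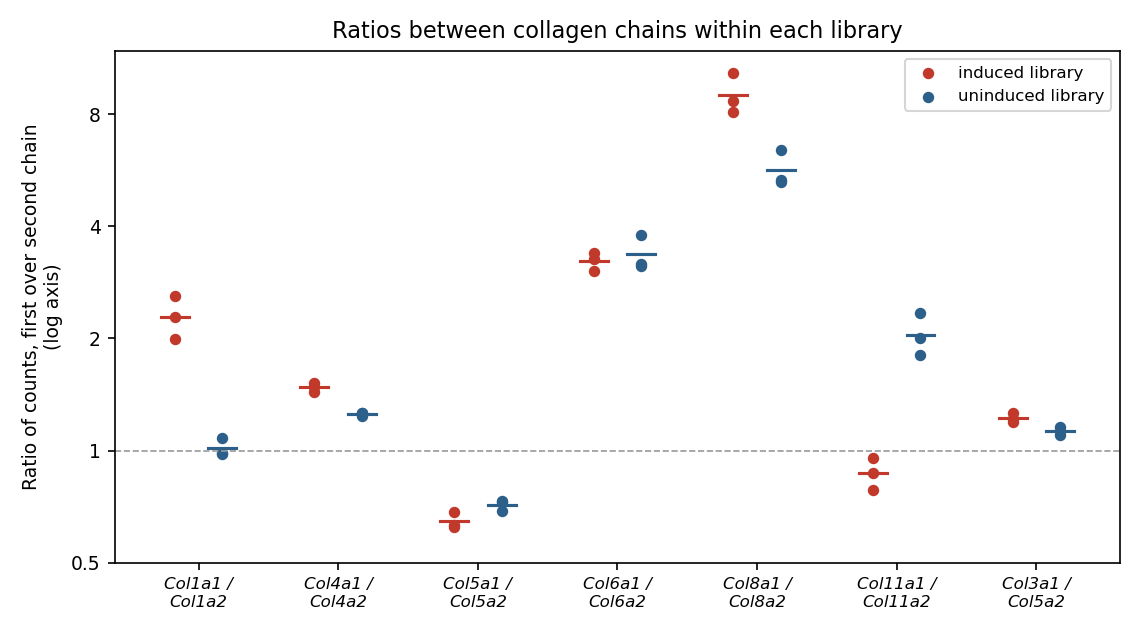
Ratio of counts between 2 collagen chains in each library, on a log axis, with the group mean as a line. Induced and uninduced libraries lie apart for every pair except Col6a1 over Col6a2, with the widest gaps for Col1a1 over Col1a2 and Col11a1 over Col11a2. The share of other gene pairs that lie apart was not measured.

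Genes that process collagen were read from a list of 33, of which 31 were tested. Of these, 18 were lower and 9 higher (6 each by at least 2-fold), with a median log2 fold change of -0.56. Among the 6 higher by at least 2-fold, Colgalt2 and Tll1 (named only for this) passed the count filter through induced libraries alone. Their higher calls are therefore no independent count. Over all tested genes 82.5% were called, 41.2% lower and 41.3% higher, with 12.7% lower and 18% higher by at least 2-fold, so the share of the list called in either direction was near the background. Among those lower were Adamts14, a procollagen amino-propeptidase, at 3.64 ± 0.204 CPM in induced and 15.4 ± 0.303 CPM in uninduced cells (SD, n = 3 each), a log2 fold change of -2.08 ± 0.11 (SE). Creb3l1, which in mice drives type I collagen transcription in osteoblasts, was at -1.57 ± 0.05. Fkbp10, a chaperone of the endoplasmic reticulum that binds procollagen, was at -1.51 ± 0.04, and the prolyl 4-hydroxylase subunit P4ha3 at -1.48 ± 0.08.

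Other enzymes of collagen modification rose. Colgalt2, a collagen galactosyltransferase, was at 58.6, 68.3 and 57.4 CPM in induced libraries, against 0.209, 0.259 and 0.164 CPM in uninduced libraries, a rise of 8.15 ± 0.14 on the log2 scale (SE; edgeR adjusted p = 2.0e-24). It was tested only through its induced counts. The related Colgalt1, named after its value was seen, was lower (-0.95 ± 0.05). P4ha2, another prolyl 4-hydroxylase subunit, rose to 157 ± 8.31 CPM in induced cells, against 43.6 ± 1.06 CPM in uninduced cells (SD, n = 3 each), by 1.85 ± 0.05 on the log2 scale. The prolyl 3-hydroxylase gene P3h2 rose by 1.72 ± 0.16 and P3h3 by 1.71 ± 0.28. P3h3 had few counts, 24, 29 and 29 in induced and 17, 16 and 14 in uninduced libraries. On total counts alone 24 of the list were lower and 6 higher, where 76.7% of all tested genes were lower.

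Of 10 collagen receptor genes 7 were tested, and 6 were lower, beside 41.2% of all tested genes called lower and 82.5% called in either direction. Itga11, the integrin chain for fibrillar collagen on fibroblasts, was at 1.07 ± 0.136 CPM in induced and 6.96 ± 0.420 CPM in uninduced cells (SD, n = 3 each), or -2.70 ± 0.17 on the log2 scale (SE; edgeR adjusted p = 5.1e-13). The uptake receptor Mrc2 was at -1.64 ± 0.07, the receptor kinases Ddr1 and Ddr2 at -1.39 ± 0.05 and -1.30 ± 0.06, Itga10 at -1.37 ± 0.17 and the shared β1 chain Itgb1 at -0.49 ± 0.04. Itga1 was higher, at 2.52 ± 0.508 CPM in induced and 1.24 ± 0.420 CPM in uninduced cells, by 1.01 ± 0.24, but at 0.05 on total counts alone (edgeR adjusted p = 0.858). Itga2, Gp6 and Lair1 had at most 4 counts over a group's 3 libraries.

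**Figure D5:**
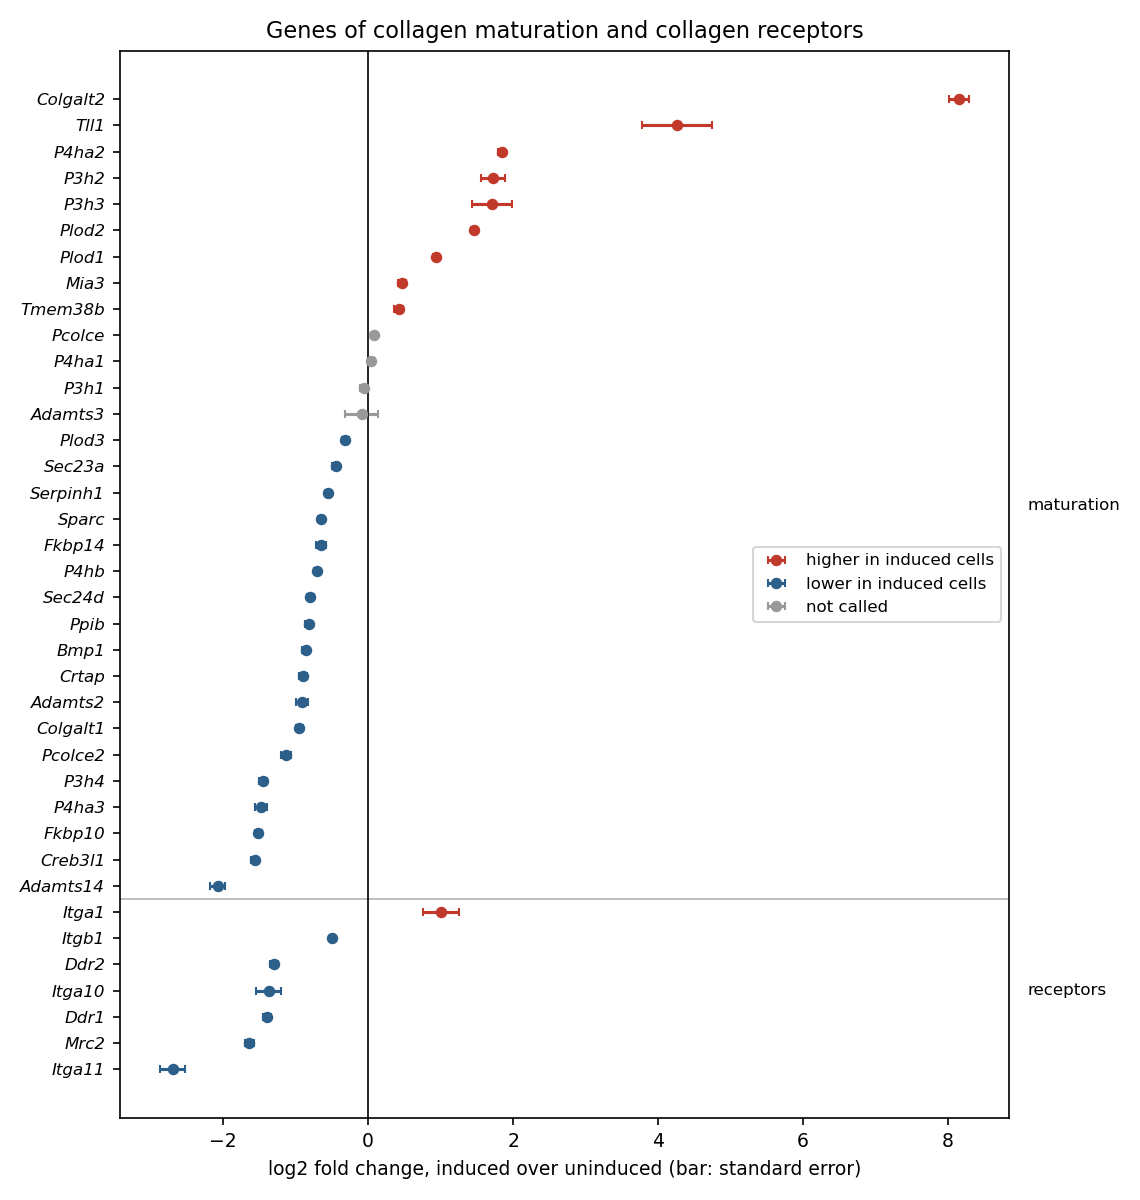
Log2 fold change, induced over uninduced, with standard errors from edgeR, for the 31 tested genes of collagen maturation and the 7 tested collagen receptors. Colgalt2 at 8.15 lies farthest to the right and Itga11 at -2.70 farthest to the left.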

How the data were processed

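Polyadenylated RNA of 6 cultures was made into TruSeq v2 libraries, per the labels' protocols. The submitters' processing notes list CASAVA, TopHat2 2.0.12, Bowtie2 2.2.3 and the build mm10 (GRCm38). Read counts per Entrez gene were used in the form the authors deposited. Which counter, strand setting and annotation made them is not given in the sources used here. Separate cultures are stated in the series description, and p-values measure the spread between these cultures of 1 clone.

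Work was done in R 4.3.3. Genes were filtered with filterByExpr (10 counts at the median library, 0.434 CPM, in 3 libraries), scaled with TMM (mean factor 0.716 for induced, 1.40 for uninduced libraries) and fitted in edgeR 4.0.16 by robust quasi-likelihood with group as the only term (two-sided tests). p-values were adjusted over all 12969 tested genes; standard errors are the log2 fold change over the square root of F. Levels per kb divide CPM by the principal GENCODE transcript. Chain ratios are ratios of counts with 0.5 added to each, tested by exact permutation (scipy 1.17.1). The replicates differed beyond counting noise (chi-square per degree of freedom 2.40 to 6.77). On simulated data with 12695 tested genes, 67 were changed by 0.5, 65 by 1 and 68 by 2 on the log2 scale. The fit recovered 97.0% of changes of 0.5 and 100% of changes of 1 and 2, and called 11 of 12495 unchanged genes. Nearly all genes were unchanged there, whereas 82.5% of tested genes were called in the real libraries. Recovery with so many genes changed was not tested.

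All 44 members matched RefSeq coordinates. Named were every member, with values per library for tested members past 2-fold and all tested chains of types I, III, IV, V and VI, plus the 4 largest rises and falls of the maturation list at a mean of 1 CPM or more and every tested receptor. The members and lists were chosen with earlier results of these data known. Alternatives were other scalings, filters and tests (DESeq2 1.42.0, limma-voom 3.58.1, glmTreat), a replicate block and leaving out each library.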

Additional observations from a re-analysis of the deposited data

How the results depend on the processing

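Scaling had the largest effect. With library size as the only scaling, 23 collagens were lower by at least 2-fold, beside 48.9% of all tested genes (12.7% with TMM), the collagen median was -1.81 beside -0.97 for all tested genes, and no receptor was higher by edgeR (0, also 0 at an unadjusted p under 0.05; DESeq2 and limma-voom, with their own or TMM scaling, gave 1). Col7a1 and Col27a1 were then at -0.73 and -0.44. Upper-quartile scaling put the collagen median at -0.99, beside -0.16 for all genes, and dropping the low-count filter put it at -0.69 over 43 genes, where the added genes had few counts. Scaling shifts all genes by about the same amount, so the distance of the collagen median from that of all genes (-0.84) could hardly change with it. Under every alternative run 18 to 25 collagens were lower and 4 to 7 higher. The fewest lower came from glmTreat against 1.5-fold (18, beside 19.4% of all tested genes) and the most from library size alone (25, beside 76.7%, near that background).

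Same-numbered libraries deviated together only weakly (correlations of 0.00738 to 0.0787), so the numbers were not taken as pairs, although every library correlated best with its own number. A replicate block gave 22 lower and 5 higher collagens, as without it, and 10 in place of 9 higher maturation genes. The log2 ratio of Col6a1 to Col6a2 ran from -0.10 to 0.03 when single libraries were left out; the other 6 pairs kept their sign. In 17 of the 22 lowered genes uninduced replicate 1 was the highest uninduced library. The same share over all tested genes was not computed, so this is not read as a trait of collagens. Depth limits the 14 untested genes, none of which exceeded 14 counts in a library.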
